A study of Mus musculus with 40 samples.

Results

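The Ikaros family comprises 5 mouse genes, Ikzf1 (Ikaros), Ikzf2 (Helios), Ikzf3 (Aiolos), Ikzf4 (Eos) and Ikzf5 (Pegasus), and the 10 probe sets described here are those whose platform annotation gives exactly 1 of these symbols, 2 for each gene, among 45141 probe sets in all. The proteins are zinc finger transcription factors. They bind DNA through an N-terminal group of fingers and pair with each other through a C-terminal group, and they recruit chromatin-remodelling and histone deacetylase complexes. Ikaros is needed for the development of lymphocytes and is known as a tumour suppressor in B cell precursor leukaemia, where lesions of it occur beside lesions of PAX5, the transcription factor that commits precursors to the B cell fate.

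The 40 arrays hold total RNA of J558LuM, a mouse plasmacytoma line. Each culture carried a construct of its own: PAX5-G183S on 7 arrays, PAX5-G183V on 7, PAX5-P80R on 6, PAX5-Δ2-6 on 6, PAX5-WT, the wild-type protein, on 7, or MIR, the vector without PAX5, on 7. P80R lies in the paired domain that binds DNA and G183S and G183V in the octapeptide that binds co-repressors, while the labels say no more of the last construct than Δ2-6. All groups come from this 1 line, and the labels do not say whether transduced cells were sorted. Each array measures a whole culture, so a change in every cell and a change in a share of the cells cannot be told apart.

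Every array has a transduction number of its own, an RNA isolation batch and a plate. In isolation batch 1, PAX5-G183V, PAX5-P80R and PAX5-Δ2-6 had transduction numbers 1 to 9 and PAX5-G183S, PAX5-WT and MIR numbers 34 to 44. In isolation batch 2, the first set had numbers 46 to 57 and the second numbers 58 to 66, apart from PAX5-G183S replicate 4 with number 45. PAX5-P80R and PAX5-Δ2-6 lay on plate 2 only, and each other group had 4 arrays on plate 1 and 3 on plate 2. Comparisons of PAX5-G183V or PAX5-P80R with PAX5-Δ2-6 therefore stay within 1 run of numbers, and those of the same constructs with MIR or PAX5-WT do not, so that construct and run cannot be told apart there within a batch. Separate transductions of 1 line are the replicates, and p-values measure the spread between them.

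Values are log2 signals made by RMA, and array medians lay between 4.21 and 4.27. A difference of 1 on this scale is a doubling, and n is the number of arrays. Markers of plasma cells were read far above the array median: over all arrays Xbp1, the secretory regulator of plasma cells, averaged 13.21, the joining chain gene Jchain 12.44, Irf4 10.88, the BCMA receptor gene Tnfrsf17 9.98 and Prdm1, the plasma cell factor Blimp-1, 9.02, while fibroblast markers averaged 3.53 to 3.79 per array. The probe set of Pax5 averaged 4.64 in PAX5-G183S, 4.88 in PAX5-G183V, 4.96 in PAX5-P80R, 5.14 in PAX5-Δ2-6, 4.77 in PAX5-WT and 4.47 in MIR arrays. Of its differences from MIR that of PAX5-P80R passed, at 0.61 ± 0.17 (SE; limma adjusted p = 0.035, unadjusted p = 0.000733). That of PAX5-Δ2-6 was larger, at 0.80 ± 0.17 (limma adjusted p = 0.354, unadjusted p = 2.47e-05), in a comparison where 0% of all probe sets passed. Whether this probe set reads the transduced sequence is unknown here, so it does not check the labels.

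Ikzf1 was called higher than in MIR for 4 of the 5 PAX5 constructs. For PAX5-G183V and PAX5-P80R, construct and run of transduction numbers cannot be told apart in this comparison. The probe set 1436312_PM_at averaged 11.03 ± 0.10 in PAX5-G183S, 10.97 ± 0.13 in PAX5-G183V, 10.90 ± 0.16 in PAX5-P80R and 10.99 ± 0.08 in PAX5-WT arrays, against 10.64 ± 0.07 in MIR arrays (SD, n = 7, 7, 6, 7 and 7). It averaged 10.61 ± 0.08 in PAX5-Δ2-6 arrays (SD, n = 6). The rise amounted to 1.20-fold to 1.29-fold at 1436312_PM_at. The other Ikzf1 probe set, 1421303_PM_at, was called for PAX5-G183S, at 1.48-fold, and for PAX5-G183V, at 1.40-fold. Ikzf2, Ikzf4 and Ikzf5 had no probe set that passed in any comparison.

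Ikzf1 spans chr11:11684962-11772930 in GRCm38.p6, and 2 of the 5 genes, Ikzf1 and Ikzf5, were matched to RefSeq upstream windows of the same build. Both upstream windows of Ikzf1 are shown because this gene carries the difference between constructs. They hold the 250 bases before each start site, on the plus strand. Both lie inside the gene span given above, and the bases before that span were not examined. Capitals mark GGGAA, the core of the Ikaros recognition sequence, here read on the minus strand as TTCCC.
Ikzf1 upstream window 1, chr11:11685675-11685924: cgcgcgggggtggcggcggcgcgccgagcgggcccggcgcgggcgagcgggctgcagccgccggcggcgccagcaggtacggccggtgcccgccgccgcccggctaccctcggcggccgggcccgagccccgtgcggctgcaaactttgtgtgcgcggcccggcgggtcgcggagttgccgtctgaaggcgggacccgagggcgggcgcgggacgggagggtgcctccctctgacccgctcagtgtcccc
Ikzf1 upstream window 2, chr11:11689927-11690176: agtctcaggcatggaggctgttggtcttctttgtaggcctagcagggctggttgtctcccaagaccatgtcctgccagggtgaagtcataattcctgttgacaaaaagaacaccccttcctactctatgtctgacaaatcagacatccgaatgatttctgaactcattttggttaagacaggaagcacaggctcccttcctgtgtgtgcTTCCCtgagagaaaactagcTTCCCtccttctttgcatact
Window 1 is 82.0% G and C and holds 0 matches to GGGAA on either strand. Window 2 is 47.6% G and C and holds 2, beginning 41 and 21 bases before the start site. Of 32851 such windows in the table, 56.2% hold at least 1 match to GGGAA and 1.78% hold GCGTGAC, a core of the PAX5 recognition sequence, on either strand, and GCGTGAC is in neither Ikzf1 window. These letters describe the windows only, and the 2 motifs do not overlap.

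The level of Ikzf1 also differed between RNA isolation batches. With groups and plates accounted for, 1436312_PM_at lay 0.17 ± 0.02 higher in isolation batch 2 than in isolation batch 1 (SE; limma adjusted p = 7.18e-07). In isolation batch 2 the PAX5-G183S arrays read 11.06, 11.12, 11.06 and 11.16, the PAX5-G183V arrays 11.11, 11.05, 11.10 and 11.02, and the PAX5-P80R arrays 11.03, 11.04 and 11.03. The PAX5-WT arrays of that batch read 11.05, 11.08 and 11.07. The PAX5-Δ2-6 arrays read 10.60, 10.74 and 10.67, against 10.69, 10.68 and 10.73 in the MIR arrays. Here the first 4 groups lay in a narrow band, and none of their arrays reached down to PAX5-Δ2-6 or MIR.

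In isolation batch 1 the same groups were spread further apart. The PAX5-G183S arrays read 11.01, 10.94 and 10.87, the PAX5-G183V arrays 10.89, 10.86 and 10.79, and the PAX5-P80R arrays 10.70, 10.81 and 10.76. The PAX5-WT arrays read 10.97, 10.97, 10.96 and 10.85. The PAX5-Δ2-6 arrays read 10.55, 10.56 and 10.54, against 10.60, 10.67, 10.53 and 10.56 in the MIR arrays. In this batch each of the 3 PAX5-P80R arrays was below all 4 PAX5-WT arrays and above all 3 PAX5-Δ2-6 and all 4 MIR arrays. PAX5-P80R overlapped PAX5-G183V, with its highest array at 10.81 and the lowest PAX5-G183V array at 10.79. How many of all probe sets separate in this way within a batch was not counted.

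**Figure D1:**
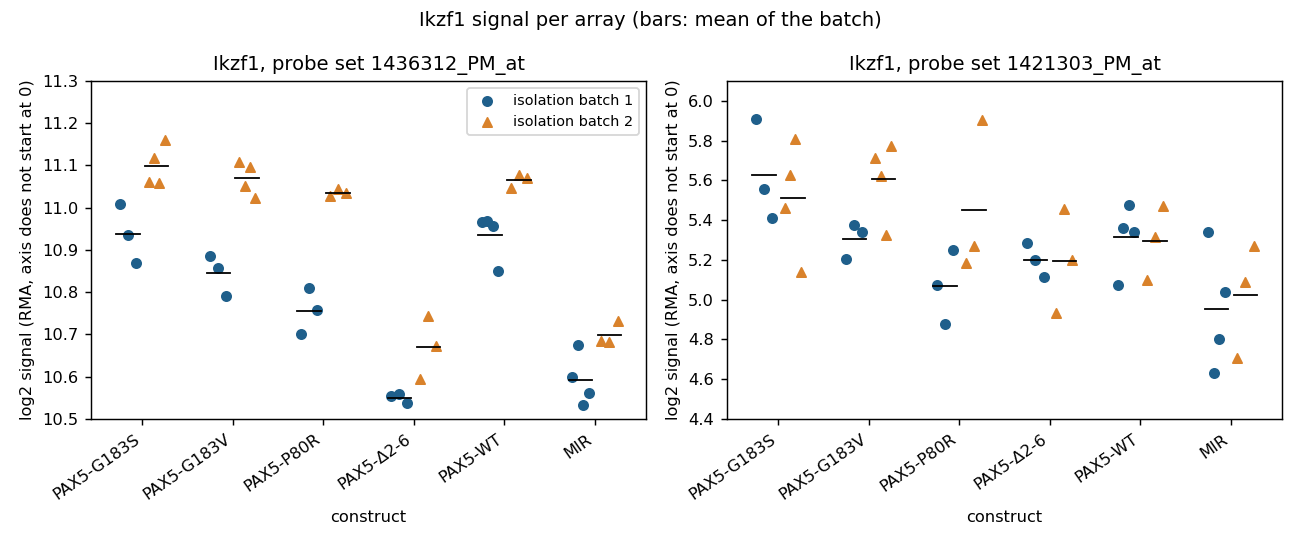
Log2 signal of both Ikzf1 probe sets (y axes, each with its own range and not starting at 0) by construct (x axes). Each point is an array, circles for isolation batch 1 and triangles for isolation batch 2, and bars are the batch means. In the left panel PAX5-Δ2-6 and MIR lie lowest in both batches and PAX5-P80R is lower in isolation batch 1 (mean 10.76) than in isolation batch 2 (mean 11.04), while the right panel has wider scatter and overlapping groups.

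Against MIR, PAX5-G183S raised Ikzf1 on both probe sets. At 1436312_PM_at the PAX5-G183S arrays had a lowest value of 10.87, a median of 11.06 and a highest value of 11.16, against 10.53, 10.67 and 10.73 in the MIR arrays, so that all 7 lay above every MIR array. The difference was 0.37 ± 0.04 (SE, n = 7 and 7; limma adjusted p = 1.49e-08), with 0.34 ± 0.05 in isolation batch 1 and 0.41 ± 0.05 in isolation batch 2. At 1421303_PM_at the PAX5-G183S arrays had a lowest value of 5.14, a median of 5.56 and a highest value of 5.91, against 4.63, 5.04 and 5.34 in the MIR arrays, and 6 of 7 lay above every MIR array. That difference was 0.56 ± 0.13 (limma adjusted p = 0.00423), and it did not pass with the isolation batch 2 arrays alone, at 0.48 (adjusted p = 0.37), or with the plate 2 arrays alone, at 0.36 (adjusted p = 0.591). Of the 10 family probe sets 2 were called higher and 0 lower, where 2.25% of all probe sets were called higher and 1.48% lower, and 1 had groups that did not overlap, as had 0.837% of all probe sets in that direction.

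PAX5-G183V was higher than MIR at both Ikzf1 probe sets as well, and it was the one construct with a call in Ikzf3. At 1436312_PM_at its arrays had a lowest value of 10.79, a median of 11.02 and a highest value of 11.11, all 7 above every MIR array, and the difference was 0.31 ± 0.04 (SE, n = 7 and 7; limma adjusted p = 5.26e-07). It was 0.25 ± 0.05 in isolation batch 1 and 0.38 ± 0.05 in isolation batch 2, and with the plate 2 arrays alone it was 0.29 (adjusted p = 0.0511). At 1421303_PM_at the PAX5-G183V arrays ranged between 5.20 and 5.77 with a median of 5.37, and 4 of 7 lay above every MIR array. The difference was 0.48 ± 0.13 (adjusted p = 0.0145). It did not pass in isolation batch 1 alone (0.35, adjusted p = 0.428), in isolation batch 2 alone (0.57, adjusted p = 0.1), on plate 2 alone (0.38, adjusted p = 0.561) or without MIR replicate 5 (0.42, adjusted p = 0.0536). In all 3 of 10 family probe sets were called higher and 0 lower, where 3.3% of all probe sets were called higher and 2.44% lower. Groups did not overlap for 1 of 10, against 1.07% of all probe sets in that direction.

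Aiolos, which acts in later B cells and in long-lived plasma cells, was read near or below the array median in every group. At the Ikzf3 probe set 1441088_PM_at the PAX5-G183V arrays had a lowest value of 4.10, a median of 4.29 and a highest value of 4.52, against 3.90, 4.12 and 4.14 in the MIR arrays. The groups overlapped, with 5 of 7 PAX5-G183V arrays above every MIR array. The difference was 0.25 ± 0.07 (SE, n = 7 and 7; limma adjusted p = 0.0418), and 0.22 ± 0.10 and 0.27 ± 0.10 in isolation batches 1 and 2. The call was lost in 8 of 13 alternatives and in 7 of 14 fits with an array left out, namely MIR replicate 2, 6 or 7 or PAX5-G183V replicate 1, 2, 6 or 7, where the adjusted p reached 0.12. Against PAX5-Δ2-6 within the same run of transductions it was 0.27 ± 0.08, which did not pass (adjusted p = 0.0655). The other Ikzf3 probe set, 1453378_PM_at, stood at -0.05 for PAX5-G183V minus MIR, so the 2 readings of this gene differed in sign.

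PAX5-P80R was higher than MIR at 1 Ikzf1 probe set. At 1436312_PM_at its arrays had a lowest value of 10.70, a median of 10.92 and a highest value of 11.04, and 5 of 6 lay above every MIR array. The difference was 0.26 ± 0.04 (SE, n = 6 and 7; limma adjusted p = 0.000179). It was 0.18 ± 0.05 in isolation batch 1 and 0.36 ± 0.06 in isolation batch 2, and the difference between the batches did not pass over all probe sets (0.18 ± 0.08, unadjusted p = 0.0243, adjusted p = 0.49). The call was lost with the isolation batch 1 arrays alone (0.21, adjusted p = 0.155), the plate 2 arrays alone (0.25, adjusted p = 0.0523) and the 2 groups fitted alone (0.26, adjusted p = 0.134). At 1421303_PM_at the difference of 0.25 ± 0.14 did not pass (adjusted p = 0.455). So 1 of 10 family probe sets was called higher and 0 lower, where 1.22% of all probe sets were called higher and 1.32% lower.

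For PAX5-Δ2-6 no difference from MIR was found in Ikzf1. At 1436312_PM_at its arrays had a lowest value of 10.54, a median of 10.58 and a highest value of 10.74, against 10.53, 10.67 and 10.73 in the MIR arrays, so that the groups overlapped over nearly their whole range. The difference was -0.02 ± 0.04 (SE, n = 6 and 7; limma adjusted p = 0.949), with a 95% interval between -0.11 and 0.06. At 1421303_PM_at it was 0.19 ± 0.14 (adjusted p = 0.817). With limma 0 of 10 family probe sets were called, as were 0% of all probe sets, while 3 of 10 had an unadjusted p under 0.05, against 7.07% of all probe sets. These 3 were Ikzf2 1421643_PM_at at 0.25 ± 0.10, Ikzf4 1438274_PM_at at 0.25 ± 0.08 and Ikzf5 1429431_PM_at at -0.18 ± 0.08, named because their p was under that value. For the first 2 the group means lay closer, at 3.73 in PAX5-Δ2-6 against 3.59 in MIR arrays and at 4.03 against 3.89, and the fit adjusts for a plate term (plate 2 minus plate 1) of -0.19 and -0.20. Ikzf2 1421643_PM_at stood at 0.43 ± 0.13 in isolation batch 1 and 0.05 ± 0.14 in isolation batch 2, and Ikzf4 1438274_PM_at at 0.24 ± 0.11 and 0.27 ± 0.12. A further fit used 3 runs of transduction numbers (1 to 9, 34 to 44 and 45 to 66) in place of the isolation batches. It joins the numbers of both construct sets from 45 on, so it does not tell construct and run apart. In it 753 of all probe sets were called in place of 0, and 0 of 10 in the family. Ikzf1 1436312_PM_at stood at 0.02 (limma adjusted p = 0.914).

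PAX5-WT raised Ikzf1 on the first probe set alone. At 1436312_PM_at its arrays had a lowest value of 10.85, a median of 10.97 and a highest value of 11.08, all 7 above every MIR array. The difference was 0.35 ± 0.04, with a 95% interval between 0.27 and 0.43 (SE, n = 7 and 7; limma adjusted p = 2.57e-08), and the batch values were 0.34 ± 0.05 in isolation batch 1 and 0.37 ± 0.06 in isolation batch 2. At 1421303_PM_at the PAX5-WT arrays lay between 5.07 and 5.48, 4 of 7 above every MIR array, and the difference of 0.32 ± 0.13 did not pass (adjusted p = 0.183). Of the 10 probe sets 1 was called higher and 0 lower, where 2.17% of all probe sets were called higher and 1.69% lower, and 1 had groups that did not overlap, against 0.897% of all in that direction.

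**Figure D2:**
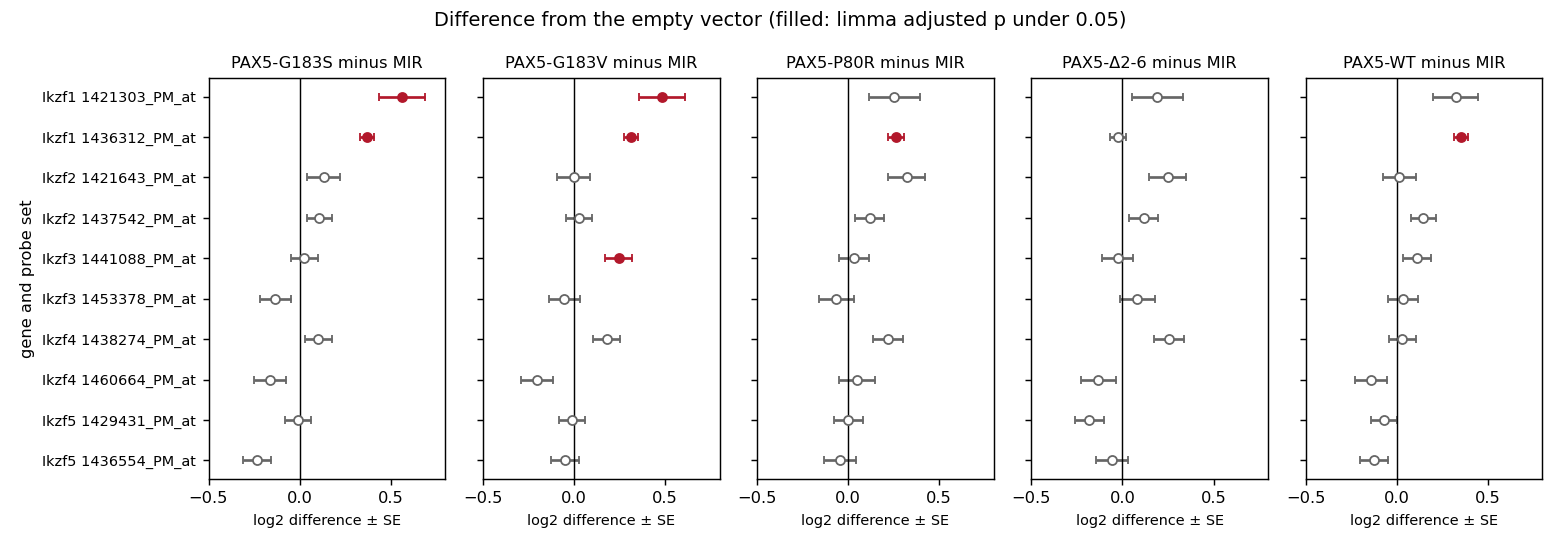
Log2 difference from MIR (x axes, ± SE) of the 10 Ikaros family probe sets (y axis) for each construct (panels). Filled points passed at a limma adjusted p under 0.05: both Ikzf1 probe sets for PAX5-G183S and PAX5-G183V, 1436312_PM_at for PAX5-P80R and PAX5-WT, Ikzf3 1441088_PM_at for PAX5-G183V, and 0 of 10 for PAX5-Δ2-6.

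The altered constructs were then set against PAX5-WT, to see where a named change in PAX5 altered the level of these genes. In the octapeptide constructs no difference in Ikzf1 was found. At 1436312_PM_at PAX5-G183S differed from PAX5-WT by 0.01 ± 0.04 (SE, n = 7 and 7; limma adjusted p = 0.998), with a 95% interval between -0.06 and 0.09, and PAX5-G183V by -0.04 ± 0.04 (n = 7 and 7; adjusted p = 0.769), with an interval between -0.12 and 0.04. At 1421303_PM_at the differences were 0.24 ± 0.13 and 0.16 ± 0.13 (adjusted p = 0.954 and 0.717). With limma 0 of 10 family probe sets were called for PAX5-G183S, where 0.0332% of all were, and 0 of 10 for PAX5-G183V, where 0.0288% of all were. An unadjusted p under 0.05 was found for 0 of 10 in each, against 5.24% and 10% of all probe sets, and the intervals do not show that the constructs act alike. With the 3 runs of transduction numbers in the fit, 1176 of all probe sets were called for PAX5-G183V minus PAX5-WT, against 13 with isolation batches, and still 0 of 10 in the family. Ikzf1 1436312_PM_at then differed by -0.00 (adjusted p = 0.992), and construct and run are not told apart in that fit either.

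PAX5-P80R, changed in the paired domain, stood at -0.09 ± 0.04 against PAX5-WT at 1436312_PM_at, which did not pass (SE, n = 6 and 7; limma adjusted p = 0.281). The values were -0.16 ± 0.05 in isolation batch 1 and -0.01 ± 0.06 in isolation batch 2, and the difference between batches did not pass over all probe sets (0.16 ± 0.08, unadjusted p = 0.046, adjusted p = 0.46). With limma 0 of 10 family probe sets were called, where 4.09% of all were, and 3 of 10 had an unadjusted p under 0.05, against 16.3% of all. The largest in size was Ikzf2 1421643_PM_at at 0.31 ± 0.10 (adjusted p = 0.0785). PAX5-Δ2-6 was lower than PAX5-WT at Ikzf1 1436312_PM_at, by a difference of -0.38 ± 0.04 (n = 6 and 7; adjusted p = 9.47e-08), and each of its 6 arrays lay below every PAX5-WT array. The values were -0.37 ± 0.05 in isolation batch 1 and -0.37 ± 0.06 in isolation batch 2. Of 10 family probe sets 1 was called lower and 0 higher, where 2.57% of all probe sets were called lower and 1.68% higher, and 1 had groups that did not overlap, against 1.3% of all in that direction.

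Within the run of transductions that PAX5-G183V, PAX5-P80R and PAX5-Δ2-6 share, Ikzf1 was higher in the first 2. At 1436312_PM_at PAX5-G183V exceeded PAX5-Δ2-6 by 0.33 ± 0.04 (SE, n = 7 and 6; limma adjusted p = 1.66e-06), with all 7 arrays above every PAX5-Δ2-6 array. PAX5-P80R exceeded PAX5-Δ2-6 by 0.29 ± 0.04 (n = 6 and 6; adjusted p = 2.45e-05), with 5 of 6 arrays above. The values were 0.27 ± 0.06 and 0.38 ± 0.05 in isolation batches 1 and 2 for PAX5-G183V and 0.21 ± 0.06 and 0.37 ± 0.06 for PAX5-P80R. With the isolation batch 1 arrays alone neither passed (adjusted p = 0.123 and 0.244). In each comparison 1 of 10 family probe sets was called higher and 0 lower, where 2.05% of all probe sets were called higher and 1.02% lower for PAX5-G183V, and 1.1% higher and 0.673% lower for PAX5-P80R. For PAX5-G183V 1 of 10 had groups that did not overlap, against 1.21% of all in that direction. These comparisons share the PAX5-Δ2-6 arrays, as those above share the MIR or PAX5-WT arrays.

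By group mean at 1436312_PM_at the order was PAX5-G183S, PAX5-WT, PAX5-G183V, PAX5-P80R, MIR and PAX5-Δ2-6. The neighbours PAX5-G183S and PAX5-WT did not differ beyond their spread, nor did PAX5-G183V and PAX5-WT or PAX5-Δ2-6 and MIR. PAX5-P80R and MIR did, and PAX5-P80R was not tested against PAX5-G183V.

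Helios, known from T cells and their regulatory subset and from haematopoietic precursors, was read mostly below the array median. Over all 40 arrays the Ikzf2 probe set 1421643_PM_at lay between 3.35 and 4.31 and 1437542_PM_at between 3.17 and 3.85. The highest value of each came from PAX5-P80R replicate 2. At 1421643_PM_at the PAX5-P80R arrays had a lowest value of 3.60, a median of 3.71 and a highest value of 4.31, against 3.35, 3.50 and 3.95 in the MIR arrays, and the groups overlapped. The difference of 0.32 ± 0.10 did not pass (SE, n = 6 and 7; limma adjusted p = 0.086), and without PAX5-P80R replicate 3 it was 0.38 (adjusted p = 0.0388). The fitted value exceeds the difference of the group means because all PAX5-P80R arrays lay on plate 2, where this probe set read lower, at -0.19 against plate 1. RMA values carry no detection call, so at levels below the array median a signal cannot be told from background.

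Eos, a partner of the regulatory T cell factor Foxp3, was likewise read near or below the array median. The Ikzf4 probe set 1438274_PM_at lay between 3.53 and 4.37 over all arrays and 1460664_PM_at between 3.79 and 4.63. The 2 readings went apart. Against MIR the first was positive for all 5 constructs, from 0.03 to 0.25, while the second was negative for 4, from -0.20 to -0.13, and 0.05 for PAX5-P80R, with 0 of these 10 values passing.

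Pegasus, the most divergent member, whose zinc fingers bind other sequences than those of Ikaros, was read well above the array median and no difference between constructs passed. The Ikzf5 probe set 1429431_PM_at averaged 8.56 ± 0.13 in PAX5-G183S, 8.56 ± 0.18 in PAX5-G183V, 8.56 ± 0.09 in PAX5-P80R, 8.37 ± 0.10 in PAX5-Δ2-6, 8.50 ± 0.15 in PAX5-WT and 8.57 ± 0.11 in MIR arrays (SD, n = 7, 7, 6, 6, 7 and 7). The PAX5-Δ2-6 value of -0.18 ± 0.08 against MIR had a limma adjusted p of 0.658, and 0 of the 11 comparisons passed. At 1436554_PM_at the PAX5-G183S arrays had a lowest value of 6.57, a median of 6.90 and a highest value of 7.18, against 6.93, 7.19 and 7.27 in the MIR arrays. Their difference of -0.23 ± 0.08 did not pass (limma adjusted p = 0.0878), with 4 of 7 arrays below every MIR array. Without PAX5-G183S replicate 6 it was -0.29 (adjusted p = 0.0165), and it passed with quantile normalization applied again (-0.27, adjusted p = 0.0296) and with dim probe sets left out (adjusted p = 0.038).

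**Figure D3:**
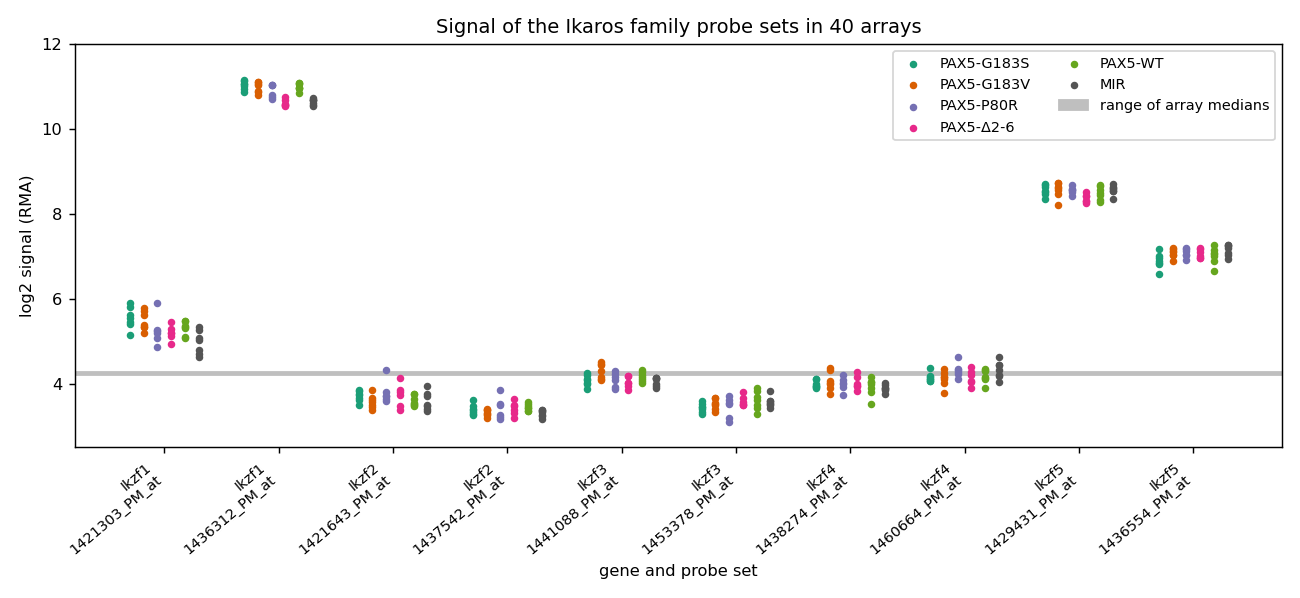
Log2 signal (y axis) of the 10 Ikaros family probe sets (x axis) in all 40 arrays, each point an array and each colour a construct, with the range of the array medians (4.21 to 4.27) in grey. Every array lies above that band for Ikzf1 and Ikzf5, while the Ikzf2 probe sets and Ikzf3 1453378_PM_at lie mostly below it and the other Ikzf3 probe set and both of Ikzf4 lie around it.

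The family as a whole shifted little. The median difference over its 10 probe sets was 0.06 for PAX5-G183S minus MIR, 0.01 for PAX5-G183V, 0.08 for PAX5-P80R, 0.03 for PAX5-Δ2-6 and 0.03 for PAX5-WT, where the median over all probe sets lay between -0.00 and 0.00 in each. These are counts over 5 genes with 2 probe sets each, which are not independent replicates.

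The proteins that Ikaros works with were followed through lists of textbook genes. Crbn is the substrate receptor of the cereblon ubiquitin ligase, which in human cells degrades Ikaros and Aiolos in the presence of thalidomide derivatives. It was lower than in MIR arrays with the same 4 constructs for which Ikzf1 was called higher. Its group means lay between 9.90 in PAX5-G183V and 10.01 in PAX5-G183S for these 4 constructs, against 10.26 in MIR arrays, and PAX5-Δ2-6 arrays averaged 10.23. Its differences from MIR were -0.27 ± 0.06, -0.38 ± 0.06, -0.31 ± 0.07 and -0.28 ± 0.06 (SE; limma adjusted p = 0.00594, 7.4e-05, 0.00571 and 0.00388), and -0.08 ± 0.07 for PAX5-Δ2-6 (adjusted p = 0.842). Against PAX5-Δ2-6 itself PAX5-G183V was lower, at -0.29 ± 0.07 (adjusted p = 0.00899), while PAX5-P80R did not pass, at -0.23 ± 0.07 (adjusted p = 0.0689). PAX5-Δ2-6 did not differ from PAX5-WT past the threshold either, at 0.19 ± 0.07 (adjusted p = 0.118). The other 4 members of the ligase list, Ddb1, Cul4a, Cul4b and Rbx1, did not pass in any of the 11 comparisons. Thus 0 rose and 1 of 5 fell with each of the 4 constructs, with list medians between -0.05 and 0.03. Read in the same way, by 1 probe set for each of 17097 genes, 1.88% of all genes fell with PAX5-G183S, 2.99% with PAX5-G183V, 1.85% with PAX5-P80R and 2.24% with PAX5-WT, and the medians over all genes lay between 0.00 and 0.01.

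Of 17 genes of the NuRD, SIN3 and CtBP complexes, through which Ikaros proteins repress or remodel chromatin, 1 rose and 16 did not pass with PAX5-G183S, PAX5-G183V and PAX5-P80R, and 1 fell and 16 did not pass with PAX5-WT. Gatad2a, a NuRD subunit, was the one that rose: it averaged 9.73 in PAX5-G183S, 9.75 in PAX5-G183V and 10.01 in PAX5-P80R arrays, against 9.56 in MIR arrays, with differences of 0.18 ± 0.05, 0.20 ± 0.05 and 0.41 ± 0.06 (SE; limma adjusted p = 0.0495, 0.0163 and 2.65e-05). In PAX5-P80R it also exceeded PAX5-WT, by 0.32 ± 0.06 (adjusted p = 0.000783), and PAX5-Δ2-6, by 0.29 ± 0.06 (adjusted p = 0.00309). Mta2, another NuRD subunit, was the one that fell with PAX5-WT, at 7.80 against 8.08 in MIR arrays, a difference of -0.28 ± 0.08 (adjusted p = 0.046). Of all genes 3.14% rose with PAX5-G183S, 4.68% with PAX5-G183V and 1.77% with PAX5-P80R, and 2.24% fell with PAX5-WT, so 1 call in 17 does not set the list apart. With PAX5-Δ2-6 minus MIR 0 of 17 passed with limma, as did 0% of all genes. Against PAX5-WT 2 of 17 were higher in PAX5-Δ2-6, where 2.23% of all genes were. They were Mta2 at 0.32 ± 0.09 and the methyl-CpG-binding subunit gene Mbd3 at 0.30 ± 0.08 (limma adjusted p = 0.0359 and 0.02). The list medians against MIR lay between -0.01 and 0.04.

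Among genes that Ikaros proteins bind or regulate in pre-B cells, 16 of the 20 listed were analysed here. Rag1, Rag2, Ctnnd1, Dntt, Foxo1, Vpreb1, Vpreb2 and Bach2 averaged between 3.46 and 4.07 over all arrays, below the array median. A signal cannot be told from background there, so uncalled values of these genes do not show a lack of response. With PAX5-G183S 2 rose, 1 fell and 13 did not pass, and the counts were the same with PAX5-G183V. Of all genes 3.14% rose and 1.88% fell with PAX5-G183S, and 4.68% rose and 2.99% fell with PAX5-G183V. With PAX5-WT 1 rose, 1 fell and 14 did not pass, where 2.94% of all genes rose and 2.24% fell. With PAX5-P80R 0 of 16 passed with limma, where 1.77% of all genes rose and 1.85% fell. With PAX5-Δ2-6 0 of 16 passed, as did 0% of all genes. Btk, the tyrosine kinase downstream of the pre-B and B cell receptors, rose with PAX5-G183S by 0.37 ± 0.06 and with PAX5-G183V by 0.34 ± 0.06 (SE; limma adjusted p = 8.53e-05 and 0.000249), as it did with PAX5-WT (adjusted p = 7.38e-06). Ccnd3, the cyclin of dividing pre-B cells, fell with PAX5-G183S to 7.50, against 7.83 in MIR arrays, and with PAX5-WT to 7.51 (adjusted p = 0.00971 and 0.00235). Ccnd2, another D-type cyclin, rose with PAX5-G183V by 0.25 ± 0.06 (adjusted p = 0.00712), and Dntt, the terminal transferase of rearranging precursors, stood at -0.27 ± 0.08 there (adjusted p = 0.0481) at a level below the array median. Myc, which drives growth and is repressed by Ikaros in pre-B cells, was the other gene that rose with PAX5-G183S, by 0.15 ± 0.04 (adjusted p = 0.0307), and is named because it completes the count. Against PAX5-WT 1 rose and 1 fell in both PAX5-P80R and PAX5-Δ2-6: Ccnd3 stood at 0.27 ± 0.08 and 0.33 ± 0.08 (adjusted p = 0.0294 and 0.00591) and Btk at -0.24 ± 0.07 and -0.27 ± 0.07 (adjusted p = 0.0358 and 0.0141). Of all genes 2.13% were higher and 3.05% lower in PAX5-P80R than in PAX5-WT, and 2.23% and 3.56% in PAX5-Δ2-6. The list medians against MIR lay between -0.00 and 0.04. The list of 5 other zinc finger factors of blood cells (Zfpm1, Bcl11a, Bcl11b, Hic1 and Zbtb7a) had 0 calls with limma in all 11 comparisons. In these at most 4.68% of all genes were called higher and at most 3.56% lower.

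**Figure D4:**
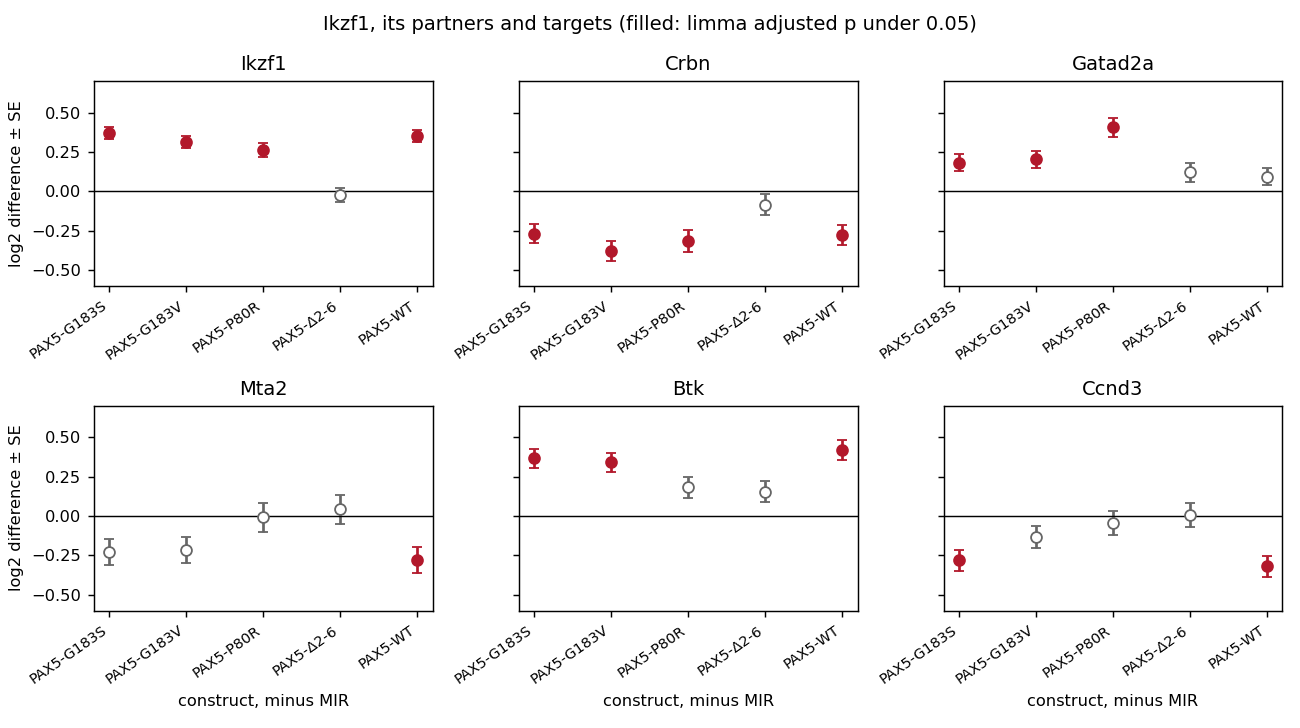
Log2 difference from MIR (y axes, ± SE) by construct (x axes) for Ikzf1 (1436312_PM_at), the ligase receptor gene Crbn, the NuRD genes Gatad2a and Mta2, the kinase gene Btk and the cyclin gene Ccnd3. Filled points passed at a limma adjusted p under 0.05. Ikzf1 is above and Crbn below 0 for PAX5-G183S, PAX5-G183V, PAX5-P80R and PAX5-WT, and for PAX5-Δ2-6 0 of the 6 genes passed.

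The 5 genes whose pattern was most like that of Ikzf1 over the 40 arrays, among 17097 genes and after removal of plate and isolation batch effects, were Hif1a, the oxygen-regulated transcription factor (r = 0.947), Ptgr1, a prostaglandin reductase (r = 0.932), Man2a1, a Golgi mannosidase (r = 0.930), Ube2h, a ubiquitin-conjugating enzyme (r = 0.923), and Ptpn22, a tyrosine phosphatase of lymphocytes (r = 0.914). The arrays fall into construct groups, so these Pearson values describe shared differences between groups. Hif1a had differences from MIR of 0.74 ± 0.04 with PAX5-G183S, 0.69 ± 0.04 with PAX5-G183V, 0.46 ± 0.05 with PAX5-P80R and -0.08 ± 0.05 with PAX5-Δ2-6 (SE), and 0.60 ± 0.04 with PAX5-WT.

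Markers of other cells and stages moved with some of the same constructs. Ms4a1, the B cell surface protein CD20, was 1 of 6 B cell markers that passed: it differed from MIR by 4.99 ± 0.28 in PAX5-G183S, 4.98 ± 0.28 in PAX5-G183V and 5.29 ± 0.28 in PAX5-WT, and by 0.17 ± 0.31 in PAX5-P80R and -0.03 ± 0.31 in PAX5-Δ2-6, which did not pass. The mean of the 6 markers lay between 5.55 and 6.00 per array in PAX5-G183S, PAX5-G183V and PAX5-WT, between 4.77 and 5.04 in PAX5-P80R and PAX5-Δ2-6, and between 4.74 and 4.96 in MIR. The median difference from MIR over the 6 was 0.08 with PAX5-G183S and PAX5-G183V and 0.05 with PAX5-WT, so the higher mean came from Ms4a1. Over all arrays Blk, Ebf1 and Cd22 averaged 3.57, 3.62 and 4.08, below the array median, and Cd79a 4.26, near it. Uncalled values of these 4 genes do not show a lack of response. Of all genes 3.14% rose with PAX5-G183S, 4.68% with PAX5-G183V and 2.94% with PAX5-WT. Ikzf1 was called with PAX5-P80R, where Ms4a1 was not.

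Of the plasma cell markers Xbp1 fell with PAX5-G183S, PAX5-G183V and PAX5-WT, by 0.16, 0.15 and 0.14 on the log2 scale (limma adjusted p = 0.0109, 0.0144 and 0.0287), and Jchain fell with PAX5-G183V by 0.63 (adjusted p = 0.00628). Of all genes 1.88%, 2.99% and 2.24% fell with PAX5-G183S, PAX5-G183V and PAX5-WT. Cd6, a T cell surface receptor read at 6.78 over all arrays, differed from MIR by 0.37 ± 0.09 in PAX5-G183S, 0.57 ± 0.09 in PAX5-G183V and 0.46 ± 0.10 in PAX5-P80R (SE; adjusted p = 0.0163, 8.54e-05 and 0.00759), and by 0.27 ± 0.09 in PAX5-WT (adjusted p = 0.106). The other 8 T cell markers did not pass against MIR, and the mean of the 9 lay between 4.65 and 4.87 per array in the PAX5 constructs, against 4.62 to 4.78 in MIR. Of all genes 3.14% rose with PAX5-G183S, 4.68% with PAX5-G183V and 1.77% with PAX5-P80R. Over all arrays Cd3g, a chain of the T cell receptor complex, averaged 8.29, while the 7 other than Cd3g and Cd6 averaged between 3.40 for Cd5 and 4.46 for Cd4. The 7 myeloid and 3 erythroid markers had 0 calls with limma in the 11 comparisons, where at most 4.68% of all genes were higher and at most 3.56% lower. Of 6 fibroblast markers 1 was called, Col3a1, at -0.41 ± 0.11 in PAX5-P80R minus PAX5-WT, where 3.05% of all genes were lower. All markers of these 3 lists but Csf1r, Spi1 and Klf1 averaged between 3.26 and 4.14 over all arrays. These levels lie below the array median, so uncalled values there do not show a lack of response. The part of these markers in the Ikzf1 result was not tested.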

How the data were processed

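RNA of 40 cultures was hybridised to Affymetrix arrays of 45141 probe sets. The values used here are log2 signals that the authors deposited, and RMA is the method named in the submitters' processing notes. The platform annotation gave 1 gene symbol for 28898 probe sets, several for 551 and none for 15692. A model with construct, plate and isolation batch was fitted to all 40 arrays and all probe sets with limma 3.58.1 in R 4.3.3. P-values were adjusted over all 45141 probe sets by Benjamini-Hochberg for each of 11 comparisons, and values pass at an adjusted p under 0.05. The number of arrays limits the precision, and read depth does not apply. Scripts were tested on simulated data. The members, gene lists and tests were chosen with earlier results of these data known. Each gene of a list was read by its probe set with the highest mean signal. The text names all family probe sets, up to 4 genes per list with the largest change among those called against MIR, the 5 genes most like each called member, and others where a count of 5 or fewer needs them, chosen after their values were seen. Mouse upstream windows came from RefSeq, GRCm38.p6. Alternatives left out batch terms, took 1 batch or plate, changed the scaling or left out an array.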

Additional observations from a re-analysis of the deposited data

Results flagged for a closer look

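Among 60 groups of arrays examined, 6 constructs for each of 10 probe sets, 2 held an array far from the others of its group. A gap of this kind is found by chance in about 1 of 20 groups. For the Ikzf2 probe set 1421643_PM_at, PAX5-P80R replicate 2 read 4.31, and the nearest of the other 5 arrays read 3.82. For the Ikzf4 probe set 1460664_PM_at, PAX5-G183S replicate 3 read 4.38, and the nearest of the other 6 read 4.19.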

How the results depend on the processing

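The rise of Ikzf1 1436312_PM_at over MIR passed in 14 of 14 alternatives for PAX5-G183S (0.33 to 0.40) and for PAX5-WT (0.34 to 0.37), as did its lower level in PAX5-Δ2-6 than in PAX5-WT (-0.40 to -0.32). The 14 settings other than leaving out single arrays gave 1419 values of 110 results for single probe sets: 0 called results changed sign, and 23 of these values lay on the other side of the threshold. For PAX5-G183S minus MIR the count of called members was 1 with isolation batch 2 alone, with plate 2 alone and with 1 probe set per gene. Over all probe sets those fits called 420, 206 and 1046, against 1017 higher and 669 lower in the fit of all arrays and probe sets. For PAX5-G183V minus MIR the member count was 1 with either isolation batch alone and 0 with plate 2 alone. Over all probe sets isolation batch 1 gave 366 calls, isolation batch 2 gave 1958 and plate 2 gave 275. The fit of all arrays gave 1488 higher and 1100 lower. For PAX5-P80R minus MIR the member count was 0 with isolation batch 1 alone, with plate 2 alone and with the 2 groups fitted alone. Over all probe sets those fits called 175, 244 and 188, against 552 higher and 597 lower in the fit of all arrays. For PAX5-G183V minus PAX5-Δ2-6 the member count was 0 with isolation batch 1 alone, where 253 of all probe sets were called. It was 2 with 1 probe set per gene or array weights, where Ikzf3 passed as well and 852 and 1526 of all were called. For PAX5-P80R minus PAX5-Δ2-6 it was 0 with isolation batch 1 alone, where 112 of all were called. The fit of all arrays called 927 higher and 459 lower for PAX5-G183V, and 497 higher and 304 lower for PAX5-P80R. Fewer arrays enter each of these fits of a batch, a plate or a pair of groups. With each array left out in turn the member counts were 2 to 3 for PAX5-G183S and for PAX5-G183V, 1 to 2 for PAX5-P80R, 0 to 0 for PAX5-Δ2-6 and 1 to 1 for PAX5-WT, each minus MIR. Against PAX5-WT they were 0 to 0 for PAX5-G183S and for PAX5-G183V, 0 to 1 for PAX5-P80R and 1 to 1 for PAX5-Δ2-6, and against PAX5-Δ2-6 they were 1 to 2 for PAX5-G183V and 1 to 1 for PAX5-P80R. The calls over all probe sets with an array left out are not reported here. Without PAX5-P80R replicate 3, Ikzf2 1421643_PM_at passed against PAX5-WT (0.36, limma adjusted p = 0.0357), and without PAX5-G183V replicate 3, 4 or 5, Ikzf3 1441088_PM_at passed against PAX5-Δ2-6 (adjusted p = 0.0369, 0.0495 and 0.0422).

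Replicate numbers are shared between constructs. A fit that kept the plate and put the replicate block in place of the isolation batch called 2 members for PAX5-G183V minus MIR, and 2700 of all probe sets. Ikzf3 1441088_PM_at stood there at 0.24 (limma adjusted p = 0.0535), and no other call changed. In the values as deposited, 44.8% of 96 same-numbered pairs correlated over 0.1, with a median of 0.08 against -0.02 in other pairs. With plate and isolation batch effects removed, 10.4% of the same-numbered pairs did, with medians of -0.04 and 0.01. Replicate numbers go partly with plate and isolation batch, so these values do not decide whether the numbers pair the arrays.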

Other observations

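The 5 genes whose pattern was most like that of Ikzf3 1441088_PM_at over the 40 arrays had lower correlations than those of Ikzf1: Bud13, of the pre-mRNA retention and splicing complex (r = 0.684), Trpv4, a calcium-permeable channel (r = 0.639), Sdcbp2, a syntenin (r = 0.617), Sema4a, a semaphorin (r = 0.611), and Pnpla3, a lipase (r = 0.608). These are descriptions over arrays that fall into construct groups. Of the 10 family probe sets, 1 differed between isolation batches at a limma adjusted p under 0.05, Ikzf1 1436312_PM_at. The next lowest adjusted p was 0.0961, for Ikzf2 1437542_PM_at, at -0.10 ± 0.04 in isolation batch 2 minus isolation batch 1 (SE). How many of all probe sets differed between isolation batches was not counted, so the 1 call does not set the family apart.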
